A study of Saccharomyces cerevisiae with 12 samples.

Results

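The 6 genes described here encode the enzymes that carry phosphatidic acid through CDP-diacylglycerol (CDP-DAG) to phosphatidylcholine in budding yeast: *CDS1* (YBR029C), *CHO1* (YER026C), *PSD1* (YNL169C), *PSD2* (YGR170W), *CHO2* (YGR157W) and *OPI3* (YJR073C). They were taken by systematic name, under a rule that sets no threshold on their values, and are 6 of the 7110 features in the table of estimated read counts. All 6 were well above the limit of detection in each of the 12 libraries, with between 184 and 3432 counts, and all passed the filter on low counts in every comparison.

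RNA was measured in *Saccharomyces cerevisiae* of the S288c background, grown at 30 °C to log phase in synthetic complete glucose medium. The *ups1*Δ cells lack Ups1, a mitochondrial protein that carries phosphatidic acid between the mitochondrial membranes. Tunicamycin blocks N-linked glycosylation and so causes the build-up of misfolded proteins in the endoplasmic reticulum, and was given at 1 μg/ml for 3 h. The 4 groups were *ups1*Δ cells with tunicamycin, untreated *ups1*Δ cells, wild-type cells with tunicamycin and untreated wild-type cells, each with 3 libraries described as biological triplicates.

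Cds1 makes CDP-DAG from phosphatidic acid, and Cho1 joins it to serine to give phosphatidylserine (PS). PS is decarboxylated to phosphatidylethanolamine (PE) by Psd1 in the mitochondrial inner membrane or by Psd2 in Golgi and endosomal membranes. Cho2 adds the first methyl group to PE, and Opi3 adds the remaining ones to give phosphatidylcholine (PC), with S-adenosylmethionine as the methyl donor. Many genes of phospholipid synthesis carry a promoter element bound by the activators Ino2 and Ino4, which are inhibited by Opi1, and Opi1 is itself held outside the nucleus by phosphatidic acid.

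Total counts ranged from 4650828 to 7101983 per library. *UPS1* had 0 to 2 counts in the 6 *ups1*Δ libraries, against 185 to 427 in the 6 wild-type libraries. The strains differed in more than *UPS1*. *LYS2* and *MET17* (a sulfide-fixing enzyme of methionine synthesis, and so upstream of the methyl donor used by Cho2 and Opi3) had at least 1250 and at least 1168 counts in each *ups1*Δ library, against 0 in each wild-type library. All 7 **a**-specific mating genes examined were lower and all 4 α-specific genes were higher in *ups1*Δ cells in both conditions. The 7 **a**-specific genes summed to 45.6 to 47.4 CPM (counts scaled to the library total times a TMM factor) in *ups1*Δ cells with tunicamycin. Their sum was 43.7 to 52.1 CPM in untreated *ups1*Δ cells. It was 1479 to 3904 CPM in wild-type cells with tunicamycin and 3253 to 3523 CPM in untreated wild-type cells. The 4 α-specific genes summed to 1710 to 2119 CPM and 3197 to 3972 CPM in these *ups1*Δ groups, against 108 to 126 CPM and 59.6 to 61.7 CPM in the wild-type groups. Deletion of *UPS1*, mating type and these markers therefore cannot be told apart in any comparison of genotypes. Wild-type tunicamycin replicate 2 stood apart from its group: *KAR2*, the main chaperone of the endoplasmic reticulum, had 29647 counts there, against 18546 and 16322 in replicates 1 and 3, and a chi-square per degree of freedom over genes gave 29.1 and 31.2 against these replicates, which gave 10.3 between themselves. Untreated *ups1*Δ replicate 3 also stood apart (16.7 and 20.1 against replicates 1 and 2, which gave 2.09 between themselves). Without it each call on the 6 genes held.

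All 6 genes have the letters CATGTG, the core of the Ino2-Ino4 site, within 500 bases before the start codon, on either strand. The same letters occurred in 789 (13.2%) of 6000 windows of that length in the R64 assembly. The match nearest to each start codon is shown because the members share it. The rule used no sequence, but it named genes of phospholipid synthesis, many of which carry this element, so matches were foreseen. Each run is on the strand of its gene, 5′ to 3′, with the match in capitals (CACATG is CATGTG on the other strand).
CDS1: cagatgggatgaCATGTGaaaagtgtaaca
CHO1: cctttgagctttCACATGgacccatctaaa
PSD1: agcaggcacaagCATGTGgaaaatttgttc
PSD2: ctagccctaacgCATGTGctacttcaagga
CHO2: ttattcccttctCATGTGaagagttcacac
OPI3: tatgcaaacccaCACATGcatcgttggttt

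These stretches lie at chrII:297887-297916 (*CDS1*, minus strand), chrV:208616-208645 (*CHO1*, minus strand), chrXIV:317818-317847 (*PSD1*, minus strand), chrVII:836998-837027 (*PSD2*, plus strand), chrVII:802161-802190 (*CHO2*, plus strand) and chrX:573066-573095 (*OPI3*, minus strand). The matches begin between 132 bases (*PSD2*) and 267 bases (*CHO2*) before the start codon. The longer form CATGTGAAA, found in 43 windows (0.717%), was present in *CDS1* and *CHO1* alone among the 6. The URS1 core GCCGCC was found in *OPI3* (9.57% of all windows), and the core of the unfolded protein response element, CAGCGTG, in none of the 6 (2.32% of all windows). The GCCGCC match begins 282 bases before the start codon of *OPI3*. That is beyond the 159 bases between *OPI3* and the divergent gene *MOG1*, since windows were not cut at neighbouring genes. A match describes these letters in these windows and shows no binding. The motif is shared by all 6 genes, including *PSD2*, whose transcript moved differently from the others.

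The coding sequences are single exons with no annotated gene overlapping them, at chrII:296369-297742 (*CDS1*), chrV:207644-208474 (*CHO1*), chrXIV:316169-317671 (*PSD1*), chrVII:837142-840558 (*PSD2*), chrVII:802440-805049 (*CHO2*) and chrX:572315-572935 (*OPI3*). Levels between genes were compared per kilobase of coding sequence. In wild-type cells with tunicamycin, *OPI3* was the highest at 703 ± 135 CPM per kb, followed by *CHO1* at 134 ± 6.95 and *CHO2* at 87.9 ± 13.6 (SD, n = 3). *PSD2* (45.6 ± 0.742) and *PSD1* (40.2 ± 4.71 CPM per kb) differed by less than the sum of their SDs, and *CDS1* was the lowest at 25.3 ± 1.97 CPM per kb. Untreated wild-type cells had another order below the first 2 genes. *OPI3* stood at 1100 ± 27.3 and *CHO1* at 738 ± 6.71 CPM per kb. *CDS1* (193 ± 3.06), *CHO2* (188 ± 7) and *PSD1* (176 ± 9.19 CPM per kb) followed, each differing from the next by less than the sum of their SDs, and *PSD2* was the lowest at 37.8 ± 1.53 CPM per kb. In *ups1*Δ cells, with and without tunicamycin, the order was that of untreated wild-type cells. These are relative amounts after TMM scaling, and are not shares of all mRNA in a library. Fewer transcripts per cell cannot be told apart from fewer cells that express the gene.

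**Figure D1:**
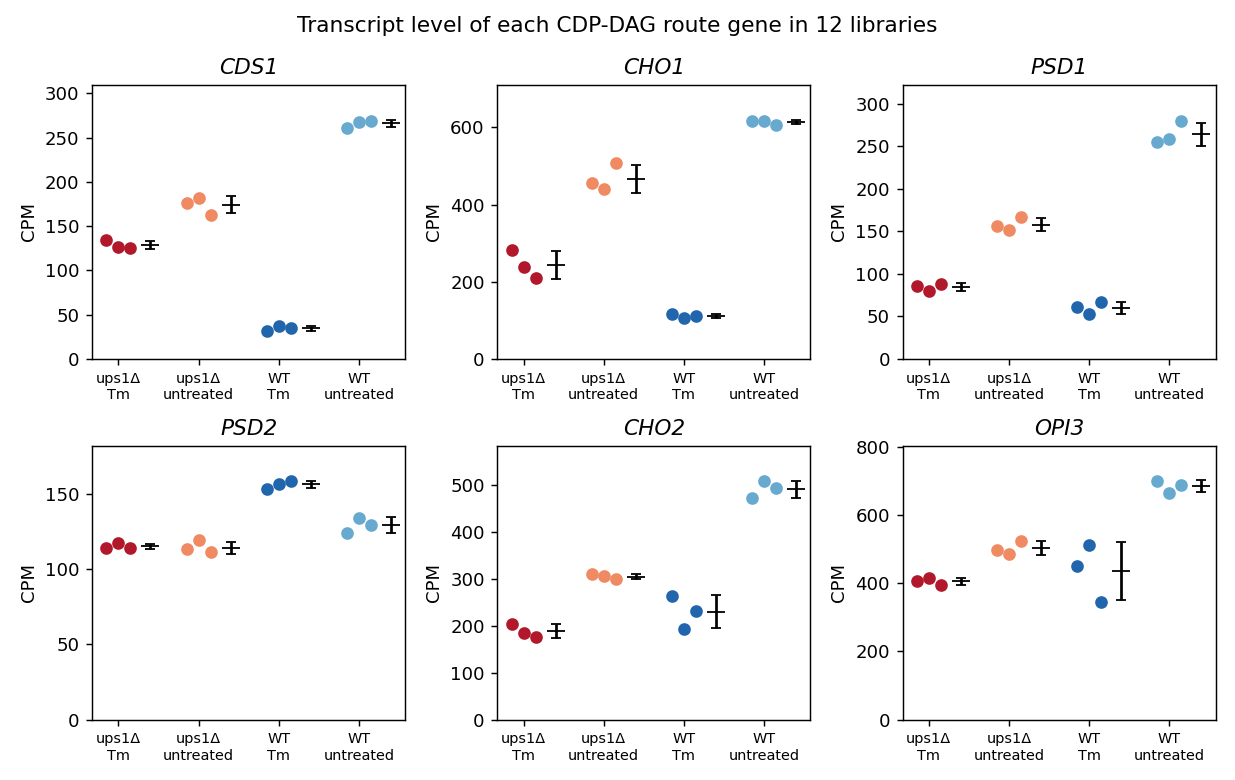
Level of each of the 6 genes in CPM (counts scaled to the library total times a TMM factor) in *ups1*Δ and wild-type (WT) cells with tunicamycin (Tm) or untreated. The y axis starts at 0 and has a different scale in each panel. Points are single libraries and the bar beside them is the mean ± SD (n = 3); *CDS1* averaged 129 CPM in *ups1*Δ cells with tunicamycin and 34.8 CPM in wild-type cells with tunicamycin, and *PSD2* alone of the 6 was highest in wild-type cells with tunicamycin.

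Without tunicamycin, *ups1*Δ cells had lower transcript levels than wild-type cells along most of the route. Of the 6 genes, 5 fell, 0 rose and 1 did not pass the test, where 25.8% of all genes tested were called lower and 26.5% higher (edgeR quasi-likelihood test, adjusted p under 0.05). The median log2 fold change of the 6 was -0.50, against 0.021 over all genes. *CDS1* had 176, 182 and 163 CPM in *ups1*Δ cells, against 261, 267 and 269 CPM in wild-type cells. The groups did not overlap, and *CDS1* was 1.5-fold lower in *ups1*Δ cells (log2 fold change -0.58, SE 0.06, edgeR adjusted p = 0.000201). *CHO1* had 455, 439 and 508 CPM in *ups1*Δ cells, against 617, 617 and 607 CPM in wild-type cells. This was the smallest of the 5 decreases (log2 fold change -0.36, SE 0.08, edgeR adjusted p = 0.00415), and it was -0.43 without untreated *ups1*Δ replicate 3, the highest of its group.

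The mitochondrial PS decarboxylase gene *PSD1* showed the largest decrease. It had 156, 152 and 167 CPM in untreated *ups1*Δ cells, against 255, 258 and 280 CPM in untreated wild-type cells, and was 1.64-fold lower (log2 fold change -0.71, SE 0.07, edgeR adjusted p = 0.000125). *PSD2*, for the enzyme of the same reaction outside mitochondria, had 113, 119 and 111 CPM in *ups1*Δ cells, against 124, 134 and 129 CPM in wild-type cells. The values of *PSD2* did not overlap either, but the difference missed the threshold (log2 fold change -0.15, SE 0.07, edgeR adjusted p = 0.0863) and passed it with all 12 libraries in 1 fit (edgeR adjusted p = 0.0326). Both methyltransferase genes fell. *CHO2* had 310, 306 and 300 CPM in *ups1*Δ cells, against 472, 508 and 493 CPM in wild-type cells (log2 fold change -0.65, SE 0.06, edgeR adjusted p = 0.000107). *OPI3* had 496, 486 and 525 CPM in *ups1*Δ cells, against 698, 665 and 688 CPM in wild-type cells (log2 fold change -0.41, SE 0.07, edgeR adjusted p = 0.00125). Every *ups1*Δ library was below every wild-type library for each of these 2 genes.

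In wild-type cells, tunicamycin gave larger changes than any other pairwise comparison for 5 of the 6 genes, *PSD2* being the exception. Of the 6, 5 fell and 1 rose, where 37.0% of all genes tested were called lower and 39.4% higher, and their median log2 fold change was -1.63, against 0.052 over all genes. The size of the change followed the order of the route, with *CDS1* changed most and *OPI3* least of the 5 that fell. *CDS1* had 32.0, 37.3 and 35.2 CPM with tunicamycin, against 261, 267 and 269 CPM without it, and was 7.73-fold lower (log2 fold change -2.95, SE 0.09, edgeR adjusted p = 3.25e-08). Only 1.57% of the genes tested had a log2 fold change at or below that of *CDS1*. *CHO1* had 117, 106 and 112 CPM with tunicamycin, against 617, 617 and 607 CPM without it, and was 5.57-fold lower (log2 fold change -2.48, SE 0.10, edgeR adjusted p = 7.94e-08). *PSD1* had 60.6, 53.3 and 67.5 CPM with tunicamycin, against 255, 258 and 280 CPM without it, and was 4.43-fold lower (log2 fold change -2.15, SE 0.10, edgeR adjusted p = 1.08e-07). For these 3 genes the gap between groups was far wider than the spread within them.

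*PSD2* went the other way in wild-type cells. It had 153, 156 and 158 CPM with tunicamycin, against 124, 134 and 129 CPM without it, and rose 1.19-fold (log2 fold change 0.25, SE 0.07, edgeR adjusted p = 0.0113). Of all genes tested, 58.9% had a log2 fold change at or below that of *PSD2*, and 39.4% were called higher. Without untreated wild-type replicate 1, the lowest of its group, the increase missed the threshold (log2 fold change 0.21, edgeR adjusted p = 0.0563). The call was also lost at an adjusted p of 0.01. *CHO2* had 264, 194 and 231 CPM with tunicamycin, against 472, 508 and 493 CPM without it, and was 2.17-fold lower (log2 fold change -1.12, SE 0.12, edgeR adjusted p = 2.09e-05). *OPI3* had 451, 512 and 346 CPM with tunicamycin, against 698, 665 and 688 CPM without it, and was 1.59-fold lower (log2 fold change -0.67, SE 0.15, edgeR adjusted p = 0.00214). The 3 tunicamycin libraries were widest apart for *OPI3*, and replicate 2, which stood apart in general, was the lowest for *CHO2* and the highest for *OPI3*.

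The scaling of libraries matters here. The 50 most abundant genes took 16.2% to 17.9% of counts in wild-type cells with tunicamycin and 22.9% to 26.8% in the other groups. When libraries were scaled by their totals alone (library size only), the all-gene median in this comparison was 0.57 in place of 0.052 on the log2 scale, and 25.9% in place of 48.4% of the called genes were lower. Under that scaling *OPI3* no longer passed the test (log2 fold change -0.15, edgeR adjusted p = 0.347), while the other 5 genes kept their direction and call. The log2 fold change of *PSD2* was then 0.77, against the all-gene median of 0.57.

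In *ups1*Δ cells the same 5 genes fell with tunicamycin, but the order of the changes was another. Of the 6 genes, 5 fell, 0 rose and 1 did not pass the test, where 11.9% of all genes tested were called lower and 15.2% higher, and their median log2 fold change was -0.55, against 0.0073 over all genes. *CHO1* had 282, 237 and 210 CPM with tunicamycin, against 455, 439 and 508 CPM without it, and was 1.91-fold lower (log2 fold change -0.94, SE 0.11, edgeR adjusted p = 0.00064). *PSD1* had 85.9, 79.8 and 88.0 CPM with tunicamycin, against 156, 152 and 167 CPM without it, and was 1.86-fold lower (log2 fold change -0.90, SE 0.07, edgeR adjusted p = 6.46e-05). *CHO2* had 204, 186 and 176 CPM with tunicamycin, against 310, 306 and 300 CPM without it, and was 1.61-fold lower (log2 fold change -0.69, SE 0.07, edgeR adjusted p = 0.000315). None of these groups overlapped.

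*CDS1*, the gene changed most in wild-type cells, was among the least changed here. It had 134, 127 and 125 CPM in *ups1*Δ cells with tunicamycin, against 176, 182 and 163 CPM in untreated *ups1*Δ cells, and was 1.34-fold lower (log2 fold change -0.42, SE 0.07, edgeR adjusted p = 0.00286). *OPI3* had 405, 416 and 396 CPM with tunicamycin, against 496, 486 and 525 CPM without it (log2 fold change -0.30, SE 0.07, edgeR adjusted p = 0.0138). The call on *OPI3* was lost without *ups1*Δ tunicamycin replicate 1 (edgeR adjusted p = 0.0561), with all 12 libraries in 1 fit (edgeR adjusted p = 0.0659) and with scaling by library size only (edgeR adjusted p = 0.0606), at log2 fold changes of -0.30, -0.31 and -0.20. *PSD2* had 114, 117 and 114 CPM with tunicamycin, against 113, 119 and 111 CPM without it. These groups overlapped and the difference did not pass the test (log2 fold change 0.02, SE 0.06, edgeR adjusted p = 0.874).

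**Figure D2:**
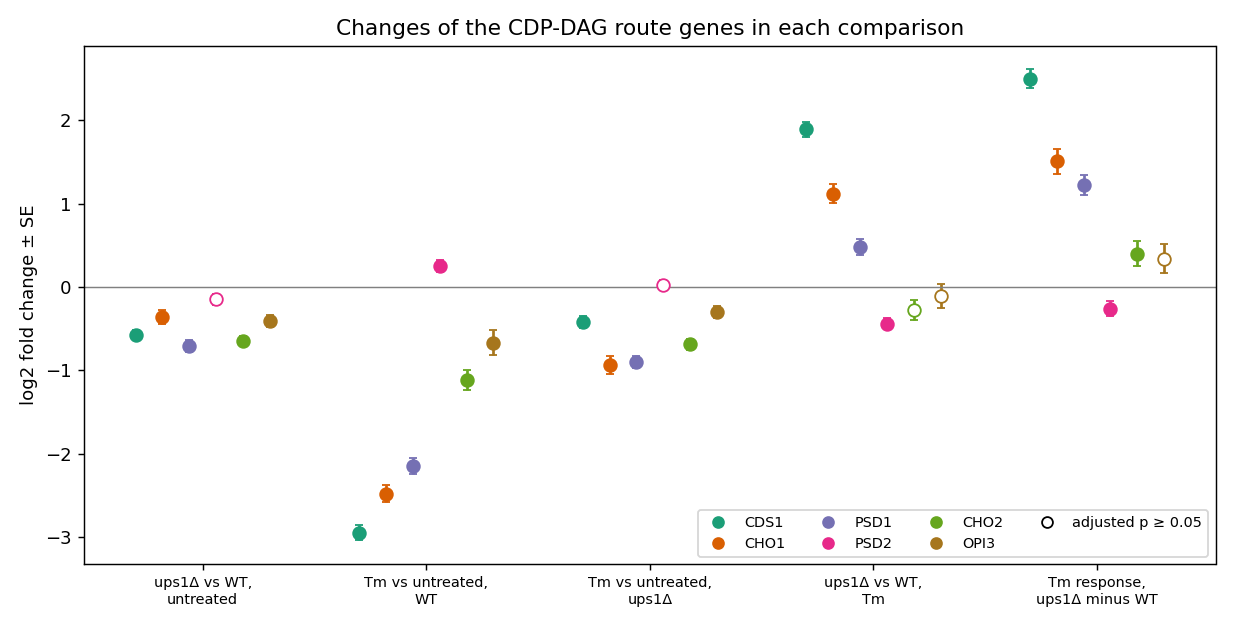
Log2 fold change ± SE (y axis) of the 6 genes in the 5 comparisons (x axis), from edgeR on 3 libraries per group; filled points passed an adjusted p of 0.05 and open points did not. *CDS1*, *CHO1* and *PSD1* lay at -2.95, -2.48 and -2.15 with tunicamycin in wild-type cells (WT), above 0 between *ups1*Δ and wild-type cells with tunicamycin (Tm), and at 2.50, 1.51 and 1.22 in the difference between the 2 responses.

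With tunicamycin present, *CDS1*, *CHO1* and *PSD1* were higher and *PSD2* was lower in *ups1*Δ than in wild-type cells, and neither methyltransferase gene passed the test. Of the 6 genes, 3 were higher, 1 was lower and 2 did not pass the test in *ups1*Δ cells, where 32.7% of all genes tested were called higher and 33.6% lower. The median log2 fold change of the 6 was 0.19, against -0.026 over all genes. *CDS1* was 3.70-fold higher (134, 127 and 125 CPM in *ups1*Δ cells, against 32.0, 37.3 and 35.2 CPM in wild-type cells), with a log2 fold change of 1.89 (SE 0.09, edgeR adjusted p = 3.11e-07). *CHO1* was 2.18-fold higher (282, 237 and 210 CPM in *ups1*Δ cells, against 117, 106 and 112 CPM in wild-type cells), with a log2 fold change of 1.12 (SE 0.11, edgeR adjusted p = 1.6e-05). *PSD1* was 1.39-fold higher, with 85.9, 79.8 and 88.0 CPM in *ups1*Δ cells, against 60.6, 53.3 and 67.5 CPM in wild-type cells (log2 fold change 0.48, SE 0.10, edgeR adjusted p = 0.00229). All 3 were thus higher in *ups1*Δ cells with tunicamycin and lower without it.

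*PSD2* was the 1 gene that was lower in *ups1*Δ cells with tunicamycin, at 114, 117 and 114 CPM, against 153, 156 and 158 CPM in wild-type cells (log2 fold change -0.44, SE 0.07, edgeR adjusted p = 0.000368). *CHO2* had 204, 186 and 176 CPM in *ups1*Δ cells, against 264, 194 and 231 CPM in wild-type cells. The groups overlapped through wild-type replicate 2, and the difference did not pass the test (log2 fold change -0.28, SE 0.12, edgeR adjusted p = 0.0635). Without that library it passed (log2 fold change -0.39, edgeR adjusted p = 0.00306). *OPI3* had 405, 416 and 396 CPM in *ups1*Δ cells, against 451, 512 and 346 CPM in wild-type cells, which lay on both sides of them (log2 fold change -0.11, SE 0.14, edgeR adjusted p = 0.536). Without wild-type tunicamycin replicate 2 its sign turned (log2 fold change 0.026, edgeR adjusted p = 0.858). With scaling by library size only, the median of all genes was -0.32 and 70.6% in place of 50.7% of called genes were lower. Under it *PSD1* no longer passed the test (log2 fold change 0.18, edgeR adjusted p = 0.144), and *CHO2* (-0.58, edgeR adjusted p = 0.00185) and *OPI3* (-0.40, edgeR adjusted p = 0.0275) were called lower.

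The difference between the responses was tested directly, as the response to tunicamycin in *ups1*Δ cells minus that in wild-type cells. Of the 6 genes, 4 had a positive and 1 a negative difference past the threshold and 1 did not pass, where 32.9% of all genes tested were called positive and 33.2% negative. Their median was 0.81, against -0.035 over all genes. *CDS1* differed most, with a response of -0.42 in *ups1*Δ cells and -2.95 in wild-type cells (difference 2.50 on the log2 scale, SE 0.11, edgeR adjusted p = 2.82e-09). Of all genes tested, 97.8% had a smaller value or the same one. The differences of *CHO1* (1.51, SE 0.15, edgeR adjusted p = 8.72e-07) and *PSD1* (1.22, SE 0.12, edgeR adjusted p = 1.21e-06) were also larger than 1, and those of all 3 genes passed under every alternative tried.

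*PSD2* had a difference of -0.26 (SE 0.09, edgeR adjusted p = 0.0201), *CHO2* one of 0.40 (SE 0.15, edgeR adjusted p = 0.0258), and *OPI3* one of 0.34 that missed the threshold (SE 0.17, edgeR adjusted p = 0.0847). The calls on these 3 changed when single libraries were left out. *PSD2* missed the threshold without untreated wild-type replicate 1 (edgeR adjusted p = 0.0592) or untreated *ups1*Δ replicate 2 (edgeR adjusted p = 0.0636). *CHO2* missed it without untreated wild-type replicate 2 (edgeR adjusted p = 0.0526) or *ups1*Δ tunicamycin replicate 1 (edgeR adjusted p = 0.0715). *OPI3* passed it without wild-type tunicamycin replicate 2 (difference 0.47, edgeR adjusted p = 0.00731). With scaling by library size only, which moved the median of all genes to -0.42 and the share of negative calls to 70.6% in place of 50.2%, *CHO2* (0.015, edgeR adjusted p = 0.931) no longer passed and *OPI3* turned to -0.048 (edgeR adjusted p = 0.806).

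Ratios between genes in the same library do not depend on that scaling. The log2 ratio of *PSD1* to *PSD2* was -0.40, -0.55 and -0.37 in *ups1*Δ cells with tunicamycin and 0.46, 0.36 and 0.59 in untreated *ups1*Δ cells. It was -1.34, -1.54 and -1.23 in wild-type cells with tunicamycin and 1.04, 0.94 and 1.11 in untreated wild-type cells. Counts of *PSD1* were thus 0.387 times those of *PSD2* in wild-type cells with tunicamycin and 2.04 times in untreated wild-type cells, and the 4 groups did not overlap. These ratios are not corrected for length (1503 bases for *PSD1* and 3417 for *PSD2*), so they show shifts between groups and not which gene was higher. Per kilobase, *PSD1* was above *PSD2* in *ups1*Δ cells with tunicamycin (56.3 against 33.6 CPM per kb). The values were 40.2 against 45.6 in wild-type cells with tunicamycin and 176 against 37.8 in untreated wild-type cells. The log2 ratio changed by -0.91 with tunicamycin in *ups1*Δ cells and by -2.40 in wild-type cells, and differed by -0.56 in untreated *ups1*Δ against wild-type cells and by 0.93 under tunicamycin (exact permutation test, two-sided, p = 0.1 each, adjusted p = 0.125 over 20 ratio tests). With 3 libraries against 3, 0.1 is the smallest p this test can give.

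The methyltransferase gene *CHO2* stood in another proportion to *PSD1*. Their log2 ratio averaged 1.92 in wild-type cells with tunicamycin, against 0.89 in untreated wild-type cells, and 1.16 in *ups1*Δ cells with tunicamycin, against 0.95 in untreated *ups1*Δ cells. The groups did not overlap in wild-type cells and overlapped in *ups1*Δ cells (exact permutation p = 0.1 and p = 0.2). Within the methylation steps, *CHO2* to *OPI3* averaged -1.10 in *ups1*Δ cells with tunicamycin, against -0.72 in untreated *ups1*Δ cells. In wild-type cells it averaged -0.92 with tunicamycin, against -0.48 untreated (difference -0.44, SE 0.25, exact permutation p = 0.1). The wild-type tunicamycin values were -0.77, -1.4 and -0.58, the lowest being that of replicate 2, against -0.57, -0.39 and -0.48 untreated. At the head of the route, *CHO1* to *CDS1* moved in opposite directions. It averaged 0.90 in *ups1*Δ cells with tunicamycin, against 1.43 in untreated *ups1*Δ cells, and 1.68 in wild-type cells with tunicamycin, against 1.21 in untreated wild-type cells. *CHO1* to *PSD1* stayed closest of these ratios in *ups1*Δ cells, at 1.51 with tunicamycin, against 1.56 without it, and the groups overlapped (exact permutation p = 0.9).

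**Figure D3:**
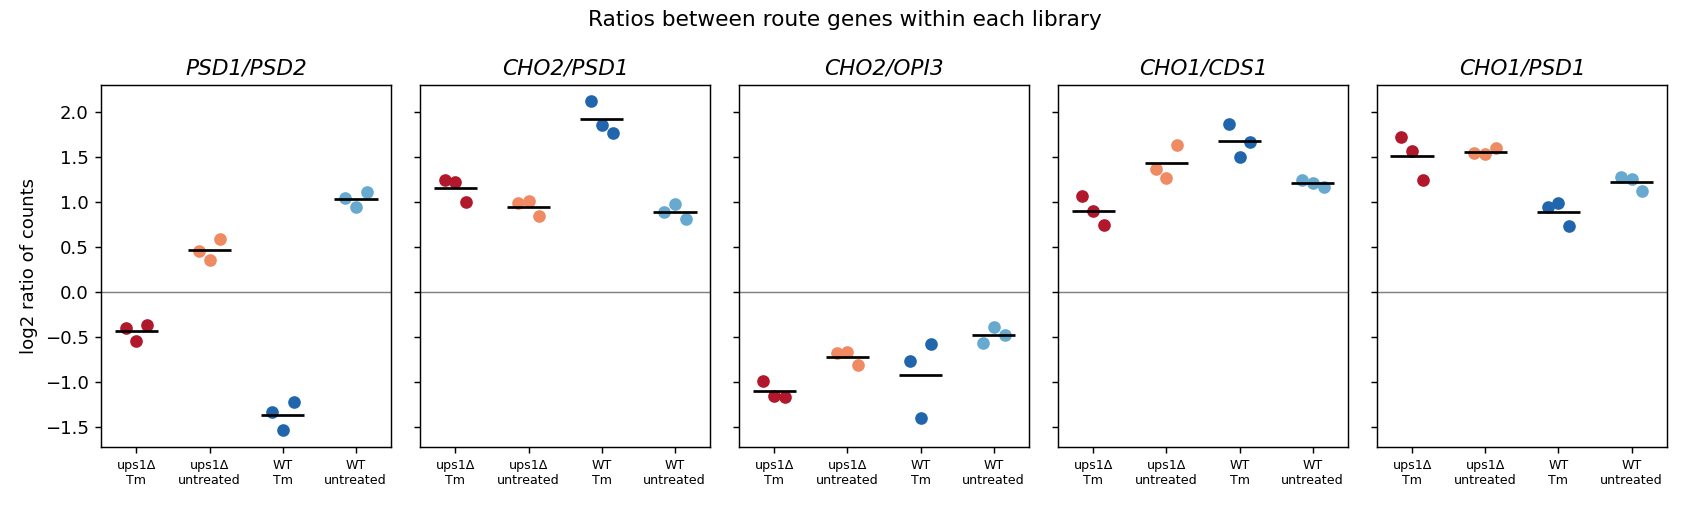
Log2 ratio of counts, not corrected for gene length (y axis), for 5 pairs of route genes within each library, by genotype and tunicamycin (Tm). Points are libraries and black lines are the means of 3. *PSD1* to *PSD2* separated the 4 groups, with means of -0.44 and 0.47 in *ups1*Δ cells with and without tunicamycin and -1.37 and 1.03 in wild-type cells (WT) with and without it.

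The profiles of the genes across the 12 libraries were compared after each gene was centred on its own mean log2 CPM, with the root mean square difference as the measure of likeness (0 for identical profiles). Among the 6, *CHO1* and *PSD1* (0.29), *CHO2* and *OPI3* (0.30) and *CDS1* and *CHO1* (0.31) were nearest to each other, and *CDS1* and *PSD2* (1.2) were farthest apart. Among 5360 candidate genes, those nearest to *CDS1* were the ribosomal protein genes *RPL40B* (0.075), *RPL17B* (0.080) and *RPL20A* (0.081). A count made after these names were seen found 47 ribosomal protein genes among the 50 nearest to *CDS1* and 23 among the 50 nearest to *CHO1*, where 132 candidates (2.46%) were such genes. For *PSD1* the count was 1 of 50, and for *PSD2*, *CHO2* and *OPI3* it was 0.

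The values of *CDS1* lay close to the median of the 132 ribosomal protein genes throughout. In *ups1*Δ against wild-type cells they were -0.58 for *CDS1* and -0.54 for the ribosomal median without tunicamycin, and 1.89 and 1.85 with it. In the response to tunicamycin they were -0.42 and -0.36 in *ups1*Δ cells and -2.95 and -2.84 in wild-type cells. These log2 fold changes share libraries and are given side by side as a description. The other members lay near that median in some comparisons and far from it in others. With tunicamycin in *ups1*Δ cells, *CHO1*, *PSD1* and *CHO2* fell by more than any of the 132 genes, while *OPI3* (-0.30) lay inside their interquartile range (-0.43 to -0.28). In untreated *ups1*Δ against wild-type cells *CHO2* (-0.65) lay inside theirs (-0.66 to -0.43).

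**Figure D4:**
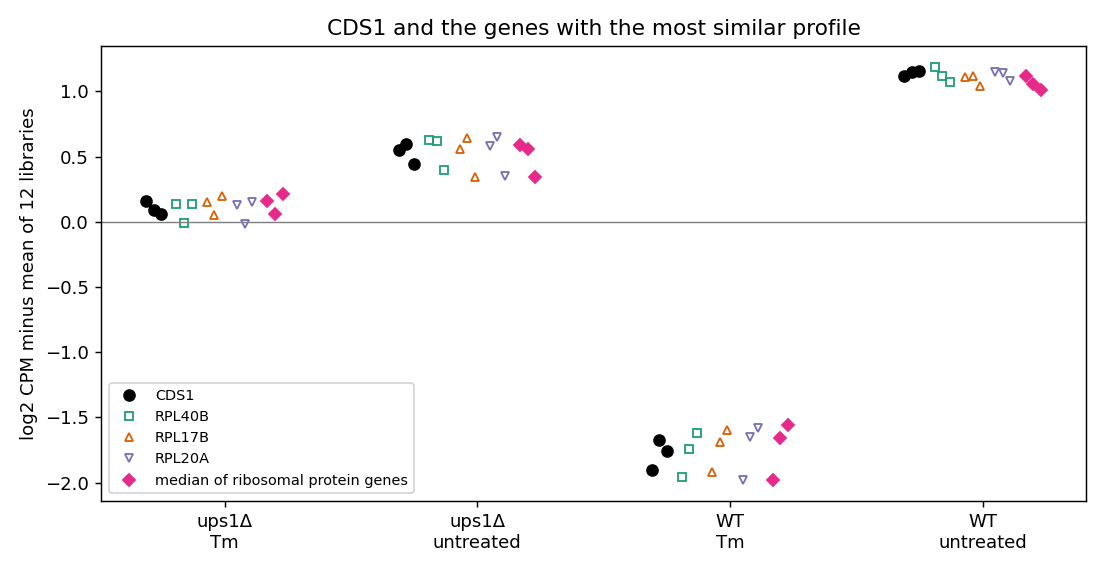
Log2 CPM minus the gene's mean over 12 libraries (y axis) for *CDS1*, its 3 nearest genes and the median of 132 ribosomal protein genes, by genotype and tunicamycin (Tm); each point is 1 library. *CDS1* and the 3 genes lay together in all groups, lowest in wild-type cells (WT) with tunicamycin, with root mean square differences of 0.075 to 0.081 from *CDS1*.

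The inositol transporter gene *ITR1* was nearest to *CHO1* (0.19), level with snR86 (0.19), and was the second nearest to *PSD1* (0.21) after *USB1* (0.18). *PSD2* was nearest to *PIK1*, which encodes a phosphatidylinositol 4-kinase (0.062), but the profile of *PSD2* spanned only 0.45 on the log2 scale between group means, which makes small distances common. *CHO2* was nearest to *BAT1*, a mitochondrial branched-chain aminotransferase gene (0.15), and *OPI3* to YGR026W (0.11).

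The genes around the route were described from fixed lists by their counts and medians. Of 11 other inositol-regulated genes, 9 fell and 0 rose in untreated *ups1*Δ against wild-type cells (25.8% and 26.5% of all genes), with a median log2 fold change of -0.58. With tunicamycin 6 fell and 1 rose in *ups1*Δ cells (median -0.34, where 11.9% and 15.2% of all genes did so). In wild-type cells 9 fell and 0 rose (median -1.45, where 37.0% and 39.4% of all genes did so), 9 fell and 1 rose with DESeq2, and 8 fell and 3 rose with scaling by library size only (median -0.93). In the difference of responses 9 were positive and 0 negative (32.9% and 33.2% of all genes), with a median of 1.22, against -0.035 over all genes. With scaling by library size only 6 were positive and 0 negative. *ITR1* was like the upper route genes, with -0.79 in *ups1*Δ and -2.60 in wild-type cells under tunicamycin. *INO1*, for the enzyme that makes inositol phosphate, rose in *ups1*Δ cells with tunicamycin (log2 fold change 1.67, SE 0.13, edgeR adjusted p = 4.14e-05), and its value was 0.63 in wild-type cells (SE 0.27, edgeR adjusted p = 0.0634). CATGTG was found in 9 of these 11 genes, *INO1* and *ITR1* among them.

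The Kennedy pathway makes PE and PC from ethanolamine and choline without the route genes. Of its 7 genes, 5 are also among the 11 inositol-regulated genes (*HNM1*, *CKI1*, *CPT1*, *EPT1* and *EKI1*), so the counts of these lists are not independent. Of the 7, 3 fell in untreated *ups1*Δ against wild-type cells (*HNM1*, *CPT1* and *EPT1*, all in both lists, where 25.8% of all genes fell). With tunicamycin 3 fell in *ups1*Δ cells, where 11.9% of all genes fell. In wild-type cells with tunicamycin 6 fell and 1 rose (37.0% and 39.4% of all genes), or 4 and 2 with scaling by library size only. The choline transporter gene *HNM1* had the largest decrease of the 7 in wild-type cells (log2 fold change -2.75, SE 0.10, edgeR adjusted p = 6e-08), close to that of *CDS1*. Of 5 genes of the methyl donor cycle, 5 fell in untreated *ups1*Δ against wild-type cells (25.8% of all genes). With tunicamycin 5 fell in *ups1*Δ cells and 4 fell in wild-type cells (11.9% and 37.0% of all genes). In wild-type cells 3 fell and 1 rose with scaling by library size only. *SAM2*, for an S-adenosylmethionine synthetase, fell in all 3 of these comparisons (log2 fold changes -1.13, -0.89 and -1.58). The part of *MET17*, absent from the wild-type libraries, in these differences was not tested.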

How the data were processed

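RNA from 3 OD600 units of cells was made into poly(A)-selected stranded libraries and sequenced. Read counts of each gene were estimated by the authors with kallisto (genome build sacCer3), and these expected counts were deposited as whole numbers, without normalization. The strand setting and the annotation release of the counting are not given in the sources used here. Another 4 deposited tables hold the authors' own DESeq2 comparisons (normalized counts, fold changes and p-values) and were not used.

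The main test was that of edgeR 4.0.16, run under R 4.3.3 (TMM normalization, filterByExpr, robust quasi-likelihood F test), with Benjamini-Hochberg adjustment over all genes tested and a threshold of 0.05. Pairs of groups were compared on their 6 libraries alone, and the difference between responses used all 12, so comparisons share libraries. CPM is relative to library size times the TMM factor over all 12 libraries. Ratios used counts plus 0.5 and a two-sided exact permutation test. Profile candidates passed the filter and averaged at least 10 CPM. The genes named are the 6 members, for each of them up to 3 genes with the nearest profile, genes of the lists called in at least 1 comparison, and *UPS1*, *LYS2* and *MET17* with the mating genes as checks of strain and label. Lists cover phosphatidic acid supply, phosphatidylinositol and cardiolipin synthesis, phosphatidic acid phosphatases, the Kennedy pathway and inositol-regulated genes. They also cover regulators, PS transport, the methyl donor cycle and targets of the unfolded protein response. The members and lists were chosen with earlier results of these data known. Windows of 500 bases before start codons were read from the RefSeq R64 assembly, of which sacCer3 is the same sequence, and 6048 features were named from its annotation. Ribosomal protein genes were counted after the profiles were seen. No 2 libraries of a group agreed within sampling noise. The steps were tested on simulated data. Alternatives were DESeq2 1.42.0, edgeR with the size factors of DESeq2 or with scaling by library size only, all genes unfiltered, a filter of 10 counts in every library, 1 fit of all 12 libraries, a replicate block, a threshold of 0.01, and leaving out each library in turn.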

Additional observations from a re-analysis of the deposited data

Results flagged for a closer look

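For 5 of the 6 genes the change with tunicamycin was not the same in both genotypes by a test of the difference itself (edgeR, all 12 libraries, *ups1*Δ response minus wild-type response on the log2 scale, adjusted p under 0.05). Of all genes tested, 32.9% had a positive and 33.2% a negative difference past the same threshold. The difference was 2.50 for *CDS1*, 1.51 for *CHO1*, 1.22 for *PSD1*, 0.40 for *CHO2* and -0.26 for *PSD2*. The calls on *CDS1*, *CHO1* and *PSD1* held under every alternative tried. Those on *CHO2* and *PSD2* were lost at an adjusted p of 0.01 and without single libraries, and that on *CHO2* also with scaling by library size only (0.015, edgeR adjusted p = 0.931). For *CDS1*, *CHO1* and *PSD1* both genotypes fell with tunicamycin, *ups1*Δ cells by less. *PSD2* had 114 to 117 CPM in *ups1*Δ cells with tunicamycin and 111 to 119 CPM in untreated *ups1*Δ cells, whereas it had 153 to 158 CPM in wild-type cells with tunicamycin and 124 to 134 CPM in untreated wild-type cells. The strains also differed in mating type, *LYS2* and *MET17*, whose part cannot be told apart from that of *UPS1*.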

How the results depend on the processing

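Tests with DESeq2, with its size factors in edgeR, without a filter and with at least 10 counts in every library gave each of the 30 calls on the 6 genes as reported. Under an adjusted p of 0.01, 3 genes in place of 5 passed in the difference between responses (*CDS1*, *CHO1* and *PSD1*). That threshold also lost *PSD2* with tunicamycin in wild-type cells (edgeR adjusted p = 0.0113) and *OPI3* with tunicamycin in *ups1*Δ cells (edgeR adjusted p = 0.0138). Leaving out each library in turn gave 5 called genes throughout in untreated *ups1*Δ against wild-type cells, 5 to 6 for tunicamycin in wild-type cells, 4 to 5 for tunicamycin in *ups1*Δ cells, 4 to 5 between genotypes under tunicamycin and 4 to 6 in the difference between responses. Signs turned in 4 values that did not pass the test. *PSD2* with tunicamycin in *ups1*Δ cells ranged from -0.010 to 0.036, and was -0.010 without untreated *ups1*Δ replicate 3. *OPI3* between genotypes under tunicamycin ranged from -0.25 to 0.026. The change of the *CHO1* to *PSD1* log2 ratio with tunicamycin in *ups1*Δ cells ranged from -0.15 to 0.083, and was 0.083 without *ups1*Δ tunicamycin replicate 3. *OPI3* in the difference between responses was -0.048 with scaling by library size only. No pairing of libraries by replicate number was seen, with correlations of same-numbered deviations between -0.24 and 0.11. With 3 libraries per group these correlations cannot show that the cultures were not paired. With the replicate block, 4 genes passed for tunicamycin in *ups1*Δ cells, with *OPI3* lost (-0.30, edgeR adjusted p = 0.0573), and 5 between genotypes under tunicamycin, with *CHO2* gained (-0.27, edgeR adjusted p = 0.0468). It changed no other call. With all 12 libraries in 1 fit *CHO2* also passed between genotypes under tunicamycin (-0.28, edgeR adjusted p = 0.0275). The causes were not tested. Depth was no limit for these 6 genes, whose lowest count was 184.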

Other observations

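The genes that supply or compete for the substrates of the route were mixed in direction. Of 7 genes for phosphatidic acid phosphatases, their regulators and the diacylglycerol kinase, 6 rose and 0 fell with tunicamycin in wild-type cells. Of all genes, 39.4% rose and 37.0% fell there, and the median log2 fold change of the 7 was 0.41, against 0.052 over all genes. With DESeq2 5 rose, and with scaling by library size only 7 rose. In *ups1*Δ cells 1 rose and 0 fell, where 15.2% and 11.9% of all genes did so. *PAH1*, the main phosphatidic acid phosphatase gene, had a log2 fold change of 0.10 in *ups1*Δ cells (SE 0.11, edgeR adjusted p = 0.521) and rose in wild-type cells (1.02, SE 0.08, edgeR adjusted p = 1.8e-06), and the difference was -0.95 (edgeR adjusted p = 2.85e-05). In untreated *ups1*Δ against wild-type cells 1 of the 7 rose and 1 fell (26.5% and 25.8% of all genes). The list of phosphatidylinositol and cardiolipin synthesis held 5 genes (*PIS1*, *TAM41*, *PGS1*, *GEP4* and *CRD1*). Of these 5, 1 fell with tunicamycin in *ups1*Δ cells (11.9% of all genes). In wild-type cells 3 rose and 2 fell (39.4% and 37.0% of all genes). The counts there were 2 and 2 with DESeq2, and 3 and 1 with scaling by library size only. *TAM41* had 0.13 in *ups1*Δ cells (edgeR adjusted p = 0.326) and rose in wild-type cells (0.89, edgeR adjusted p = 1.05e-05). The cardiolipin synthase gene *CRD1* had -0.02 in *ups1*Δ cells (SE 0.12, edgeR adjusted p = 0.922) and 1.12 in wild-type cells (SE 0.12, edgeR adjusted p = 1.34e-05), where *CDS1* fell. *PIS1*, which uses CDP-DAG to make phosphatidylinositol, fell in both (-0.41 in *ups1*Δ and -0.74 in wild-type cells), with a difference of 0.30 (edgeR adjusted p = 0.0353).

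Of 5 genes of phosphatidic acid supply, 3 fell with tunicamycin in *ups1*Δ cells, where 11.9% of all genes fell. The count was 4 with DESeq2 and 2 with scaling by library size only. In wild-type cells 3 fell and 1 rose (37.0% and 39.4% of all genes), or 2 and 2 with scaling by library size only. The acyltransferase gene *ALE1* was like the upper route genes in direction, at -0.51 in *ups1*Δ cells and -1.12 in wild-type cells, with a difference of 0.58 (edgeR adjusted p = 0.000142). Of these 5 genes, 3 had a positive and 2 a negative difference past the threshold (32.9% and 33.2% of all genes), or 1 and 2 with scaling by library size only. The negative ones were *GPT2* (-1.32, edgeR adjusted p = 0.000102), which rose in wild-type cells (0.83), and *AYR1* (-0.71, edgeR adjusted p = 0.00128). Of 6 genes of PS transport, 4 fell with tunicamycin in *ups1*Δ cells (11.9% of all genes), or 3 with scaling by library size only. In wild-type cells 5 fell (37.0% of all genes), where only 1 fell and 1 rose with scaling by library size only. In untreated cells, 3 of these 6 were higher in *ups1*Δ than in wild-type cells, where 26.5% of all genes were higher. Among the 3 were *UPS2* (0.48, edgeR adjusted p = 0.000954) and *MDM35* (0.55, edgeR adjusted p = 0.00345), which encode partners in the transfer of PS into mitochondria. Of 6 regulators, 0 passed with tunicamycin in *ups1*Δ cells, where 11.9% of all genes fell and 15.2% rose. In wild-type cells 4 fell (37.0% of all genes), where 2 fell and 3 rose with scaling by library size only. *OPI1* had 0.04 in *ups1*Δ cells (edgeR adjusted p = 0.715) and -0.44 in wild-type cells (edgeR adjusted p = 0.000734). All 10 targets of the unfolded protein response rose with tunicamycin in both genotypes, with medians of 1.60 in *ups1*Δ cells and 1.05 in wild-type cells. Of all genes tested, 15.2% and 39.4% rose. In untreated *ups1*Δ against wild-type cells, 8 of the 10 were lower (median -0.45, where 25.8% of all genes were lower). Between genotypes under tunicamycin 0 of the 10 passed (median -0.01), where 32.7% of all genes were higher and 33.6% lower. With scaling by library size only 3 were lower. The difference between responses was positive past the threshold for 7 of the 10 (32.9% of all genes) and passed for 0 with scaling by library size only.

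Genes with CATGTG in their window did not as a whole move like the route. With the 6 members left out, 107 of 710 such genes (15.1%) fell with tunicamycin in *ups1*Δ cells, against 11.9% of all genes with a window, and 254 of 717 (35.4%) fell in wild-type cells, against 36.9%. For the longer CATGTGAAA, 10 of 39 (25.6%) fell in *ups1*Δ cells, against 11.9%, and 19 of 39 (48.7%) in wild-type cells, against 36.9%. No test was made of these shares.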
